A study of Homo sapiens with 8 samples.

Results

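ITGA2B, GP1BB, RASGRP2 and PLEK are 4 genes of the platelet adhesion machinery, taken by symbol from the 1950 genes of the deposited table, in which each of the 4 has 1 row. K562 cells are a human line from a chronic myeloid leukemia and can take on features of megakaryocytes or of red cell precursors. The 4 extract libraries came from cells that had received Caulis Polygoni Multiflori (CPM, a medicinal plant stem) at 80 µg/mL for 3 days. The 4 control libraries came from cells without CPM, for which the labels give no time in culture, so time and extract cannot be told apart. The labels name 1 cell line and no separate cultures, so p-values measure the spread between libraries, which may be technical. Libraries are called by group and by the number in their title, extract 1 to 4 and control 2 to 5. The question in the series title is whether CPM speeds up the making of megakaryocytes and platelets.

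Platelets stick to injured vessels through glycoprotein receptors and to each other through an integrin. ITGA2B codes for the alpha chain of that integrin (CD41), which pairs with the beta chain ITGB3, binds fibrinogen and marks cells entering the megakaryocyte lineage. GP1BB codes for the beta chain of glycoprotein Ib, which is needed to bring the receptor for von Willebrand factor to the surface. RASGRP2 codes for a calcium-sensitive exchange factor that switches on the small GTPase RAP1 and through it the integrin, a step called inside-out activation. PLEK codes for pleckstrin, a main substrate of protein kinase C in platelets that is also made in white blood cells.

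The stretches upstream of the 4 genes are shown because the regulation of platelet genes by GATA factors is well known. They are from RefSeq on GRCh38.p14, which held all 4 genes, and positions count back from the RefSeq start site. Capitals mark GATAA or GATAG on either strand, so that CTATC and TTATC are matches on the opposite strand. Only bases outside the exons of GENCODE 29 are printed, except for GP1BB, whose whole window of 250 bases lies in annotated exons. Of that window 30 bases are shown, which hold its match at −34 to −30.
ITGA2B, chr17:44389650-44389899, minus strand: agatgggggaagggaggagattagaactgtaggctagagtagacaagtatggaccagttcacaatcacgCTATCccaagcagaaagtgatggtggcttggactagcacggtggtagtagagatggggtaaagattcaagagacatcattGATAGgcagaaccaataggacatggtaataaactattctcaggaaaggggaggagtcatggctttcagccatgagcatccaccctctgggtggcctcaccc
GP1BB, chr22:19723492-19723521, plus strand: gggcggggcggccTTATCgctcggctctcc
RASGRP2, chr11:64745457-64745598, minus strand: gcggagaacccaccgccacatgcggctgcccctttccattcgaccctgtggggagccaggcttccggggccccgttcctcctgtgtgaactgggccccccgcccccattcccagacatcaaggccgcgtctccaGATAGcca
PLEK, chr2:68365032-68365172, plus strand: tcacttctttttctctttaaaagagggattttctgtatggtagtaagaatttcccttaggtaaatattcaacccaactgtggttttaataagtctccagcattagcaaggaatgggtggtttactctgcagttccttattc

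In the full windows of 250 bases, ITGA2B held 2 GATAA or GATAG matches, GP1BB 3, RASGRP2 2 and PLEK 0. Such a match was present in 31.9% of 35116 promoter windows of that length. In ITGA2B the matches lay at −181 to −177 and at −101 to −97, and the GENCODE start of the gene lies a further 144 bases downstream. The bases between the ITGA2B window and that start were not searched for any of the words. In RASGRP2 they lay at −116 to −112 and at −35 to −31, the second within a GENCODE exon. In GP1BB they lay at −142 to −138, −133 to −129 and −34 to −30. The longer word GATAAG, which contains GATAA, occurred in GP1BB (−35 to −30, opposite strand) and in 5.65% of all windows. The ETS words CGGAAG and AGGAAG, present in 40.8% of windows, matched 1 time in GP1BB and 1 time in RASGRP2. The RUNX words TGTGGT and TGCGGT, in 16.3% of windows, matched 1 time in GP1BB and 1 time in PLEK. The SP1 word GGGCGG, in 42.6% of windows, matched 2 times in GP1BB, just upstream of the GATAAG word, and 1 time in RASGRP2. No match to TGANTCA, the word for NFE2 and AP-1, was found in the 4 windows (0, against 6.57% of all windows). The GP1BB window was the richest of the 4 in G and C (70.0%, with 29 CG pairs), against 48.8% and 2 pairs in ITGA2B and a median over all windows of 58.0% and 11. All matches are descriptions of letters, and the part of these factors in the values of the 4 genes was not tested.

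The integrin chain gene ITGA2B was lower in all 4 extract libraries than in any control library. ITGA2B (ENSG00000005961, chromosome 17, 44372180 to 44389505, GRCh38, minus strand, protein coding) had expression values of 3.37, 2.70, 4.44 and 3.40 in control 2, 3, 4 and 5. In extract 1, 2, 3 and 4 it had 2.24, 1.64, 1.67 and 2.53. The groups did not overlap, but extract 4, the highest of its group, came close to control 3, the lowest of its own. The means were 3.48 ± 0.718 and 2.02 ± 0.438 (SD, n = 4 each), a 1.72-fold difference. On the log2(value + 1) scale, which understates changes of low genes, ITGA2B fell by 0.57 (95% interval −0.91 to −0.22, limma adjusted p = 0.00972 over the 750 tested genes). With a pseudocount of 0.1 in place of 1 the change was −0.76.

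GP1BB, the glycoprotein Ib chain, was lower on average, with uneven control values. GP1BB (ENSG00000203618, chromosome 22, 19722945 to 19724771, plus strand) had expression values of 84.07, 116.97, 71.66 and 52.05 in control 2, 3, 4 and 5. In extract 1, 2, 3 and 4 it had 57.11, 46.76, 44.21 and 50.94. Control 5 lay below extract 1, so the groups overlapped, while control 3 stood highest of all. The means were 81.2 ± 27.3 and 49.8 ± 5.63 (SD, n = 4 each), a 1.63-fold difference, and GP1BB fell by 0.64 in log2 (95% interval −1.15 to −0.14, limma adjusted p = 0.0268). Leaving out control 3 gave −0.45 (adjusted p = 0.0394) and leaving out control 5 gave −0.83 (adjusted p = 0.00421), both in limma. The call was lost without control 2, extract 2 or extract 3 (limma adjusted p = 0.0583, 0.0568 and 0.0614). The gene lies wholly inside the annotated readthrough gene SEPT5-GP1BB and shares 1280 bases with SEPT5 on the same strand. Neither was in the table, and reads of the 3 annotations may have been shared.

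RASGRP2, the activator of RAP1, was lower in every extract library than in every control library. RASGRP2 (ENSG00000068831, chromosome 11, 64726911 to 64745456, minus strand) had expression values of 7.89, 7.31, 7.69 and 5.59 in control 2, 3, 4 and 5. In extract 1, 2, 3 and 4 it had 4.60, 5.07, 4.33 and 3.80. Control 5 was again low and stood nearest to the extract group, with extract 2 below it. The means were 7.12 ± 1.05 and 4.45 ± 0.530 (SD, n = 4 each), a 1.60-fold difference. RASGRP2 fell by 0.57 in log2 (95% interval −0.85 to −0.29, limma adjusted p = 0.00353), the narrowest interval of the 3 tested members.

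PLEK was barely present in either group and did not pass. PLEK (ENSG00000115956, chromosome 2, 68365173 to 68397453, plus strand) had expression values of 0.15, 0.03, 0.10 and 0.02 in control 2, 3, 4 and 5. It was listed at 0 in extract 1, 2 and 4 and at 0.02 in extract 3, the same value as in control 5. Values are given to 2 decimals, so most of these lie a few steps from 0, and a fold of them is not a reliable size of change. PLEK reached the filter of 1 in 0 of 8 libraries. In the limma fit without a filter on low values its log2(value + 1) change was −0.10 (95% interval −0.19 to −0.00096, adjusted p = 0.0812 over all 1950 genes). In the authors' deposited table its log2 fold change was −2.59 with an adjusted p of 0.338. Group means computed here from the library values gave −3.91, where the extract mean rests on the 0.02 of extract 3. A short annotated antisense gene overlaps 412 bases of PLEK, and whether the library kit marked strand is not given in the sources used here.

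**Figure D1:**
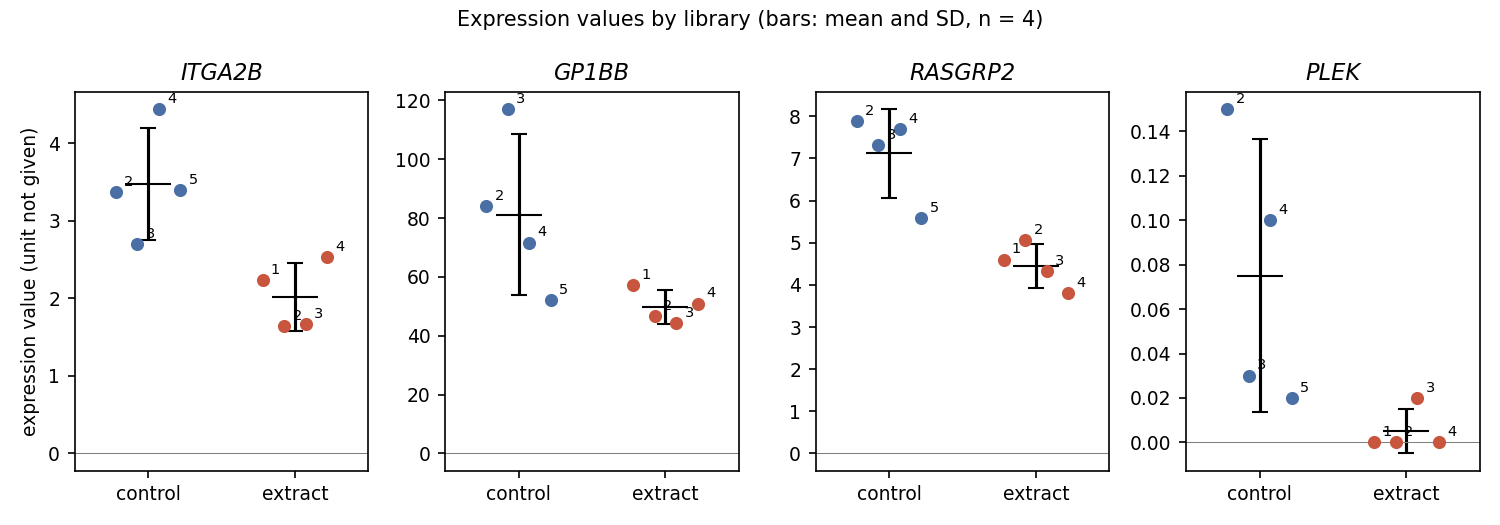
Expression value of each gene (vertical axes, unit not given, separate scales) in the 4 control (blue) and 4 extract (red) libraries, numbered as in their titles, with group mean and SD (n = 4). In ITGA2B and RASGRP2 the groups do not overlap, in GP1BB control 5 (52.05) lies below extract 1 (57.11), and PLEK stays at or below 0.15.

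The 3 tested members passed in limma and had values above 1 in all 8 libraries, so that none entered the test through 1 group alone. Passing says little here, because every listed gene had been selected by the authors' own test on these libraries, with a deposited p-value of 0.0499 or less. Among the 750 tested genes 56.0% were called lower and 26.8% higher. Groups did not overlap, with the extract lower, for 45.9% of tested genes, against 2 of the 3 tested members. The median log2 change of all tested genes was −0.50, and the members' changes of −0.57, −0.64 and −0.57 lay close to it. Control over extract, the 3 members differed by 1.60 to 1.72-fold, just beyond the 1.50-fold at which the table begins.

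**Figure D2:**
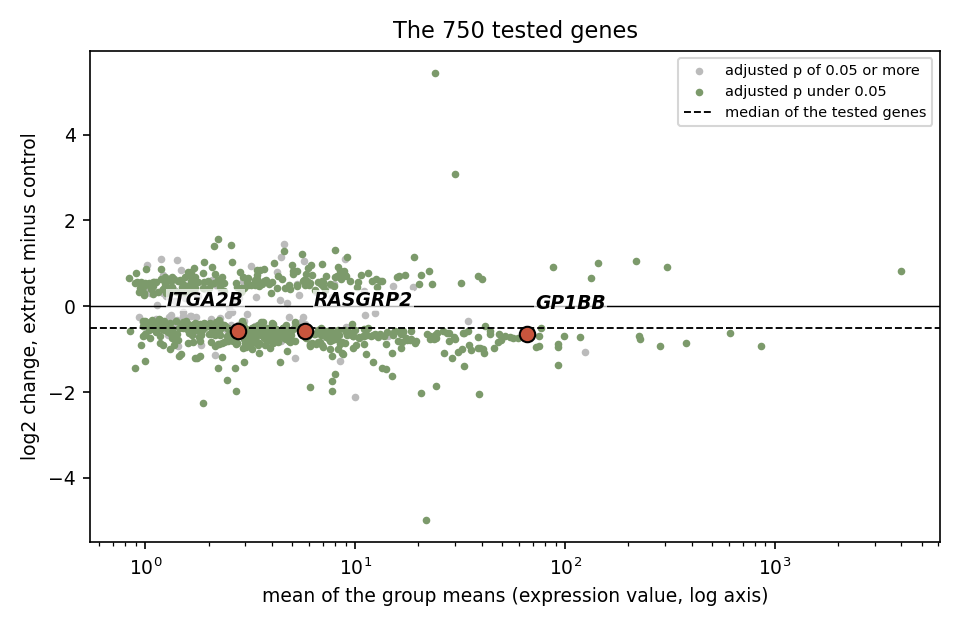
Log2 change (extract minus control, vertical) against the mean of the group means (horizontal, log axis) for the 750 tested genes, green where the limma adjusted p is under 0.05. ITGA2B, RASGRP2 and GP1BB (red) lie within the band of lower genes, near the dashed median of −0.50.

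The calls rested on how the libraries were scaled. The median of the tested genes lay 0.27 lower (log2) in extract than in control libraries. With the libraries centred on that median, the changes were −0.30 for ITGA2B, −0.38 for GP1BB and −0.30 for RASGRP2, and all 3 calls were lost (limma adjusted p = 0.105, 0.171 and 0.0655). With quantile normalization RASGRP2 stayed past the threshold (−0.33, limma adjusted p = 0.0433), ITGA2B did not (−0.31, adjusted p = 0.0976) and GP1BB had almost no difference left (0.019, adjusted p = 0.934). Both scalings use genes that were chosen as changed, most of them lower, so this table cannot tell which scaling to prefer. Under centring 32.1% of tested genes were called lower. Adjusted over the 60664 genes recovered from the deposited p-values, 16.3% were called lower and none of the 3 members (limma adjusted p = 0.786 for ITGA2B, 1 for GP1BB and 0.285 for RASGRP2).

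**Figure D3:**
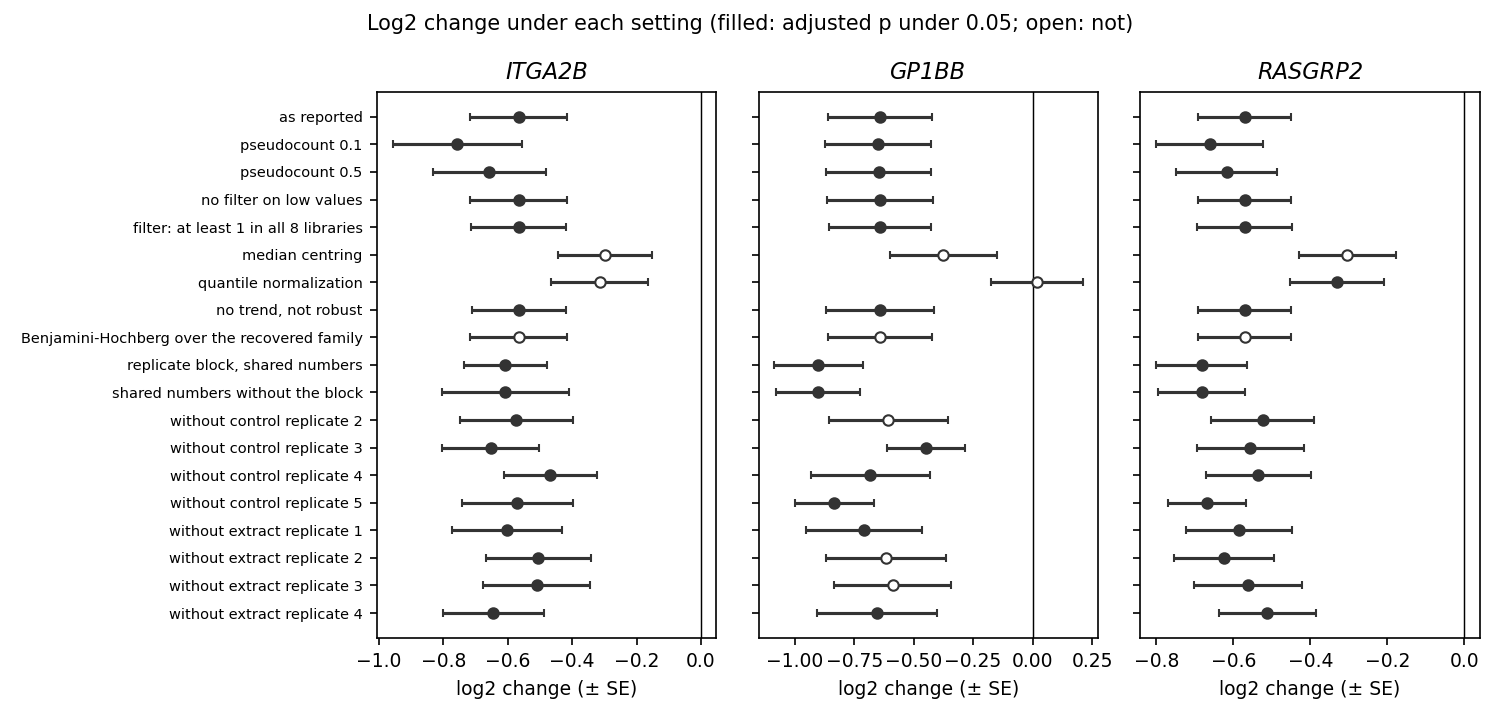
Log2 change (horizontal, ± SE, scales differ) of the 3 tested members under each setting, with filled points for an adjusted p under 0.05 in limma. Points move towards 0 under median centring and quantile normalization, and GP1BB moves between −0.83 and −0.45 as single libraries are left out.

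Ratios between members within a library do not depend on a single scaling factor per library, though quantile normalization, which is no such factor, can change them. The log2 ratio of ITGA2B to RASGRP2 lay between −1.44 and −0.72 in control and between −1.63 and −0.59 in extract libraries. Its difference of means, −0.11, was within the spread (exact two-sided permutation p = 0.686, adjusted p = 1 over 3 ratios). ITGA2B to GP1BB differed by −0.13 (exact permutation p = 0.714) and GP1BB to RASGRP2 by 0.021 (exact permutation p = 1), with adjusted p = 1 for both. With 70 splits of 8 libraries the smallest p is 0.0286, and these tests do not show that the 3 genes fell alike. Levels of the members are not compared with each other, since whether the values are per length is not given.

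ITGA2B, GP1BB and RASGRP2 were each highest in a different control library. Likeness was measured as the root-mean-square difference of log2(value + 1), centred on each gene's mean, over the 8 libraries. By this measure ITGA2B and GP1BB were 0.40 apart. The median over the other 749 tested genes was 0.37 from ITGA2B, 0.44 from GP1BB and 0.34 from RASGRP2. ITGA2B and RASGRP2 were 0.26 apart, and GP1BB and RASGRP2 0.27, both below these medians. RASGRP2 stood at rank 34 of 749 among the genes nearest to GP1BB, but GP1BB at rank 278 among those nearest to RASGRP2. RASGRP2 stood at rank 204 for ITGA2B, and ITGA2B at rank 260 for RASGRP2. ITGA2B was highest in control 4, GP1BB in control 3 and RASGRP2 in control 2, with control 5 lowest of its group for GP1BB and RASGRP2 and control 3 lowest for ITGA2B.

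Nearest to ITGA2B were BCAR3 (0.092 apart), FJX1 (0.093) and EFHC2 (0.11). All 3 were highest in control 4, as ITGA2B was. BCAR3, which codes for an adaptor protein, lay between 3.86 and 5.67 in control and between 1.88 and 3.06 in extract libraries. Nearest to GP1BB were the mitochondrial carrier gene SLC25A29 (0.13), the complex I assembly factor gene NDUFAF8 (0.14) and the transcription factor gene CEBPB (0.14). Each of these, like GP1BB, was highest in control 3 and lowest of the controls in control 5. NDUFAF8 ran from 62.03 in control 5 to 155.79 in control 3, and CEBPB from 6.70 to 12.94. Nearest to RASGRP2 were DBNDD2 (0.075), IER3 (0.093) and the glucose transporter gene SLC2A4 (0.11), all 3 with control 5 lowest of the controls. SLC2A4 reached the filter of 1 through the control group alone (1.35 to 2.03 in control, 0.72 to 0.91 in extract libraries). These genes were picked for likeness over libraries that include the group difference, so that a fall with the extract is part of the likeness.

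**Figure D4:**
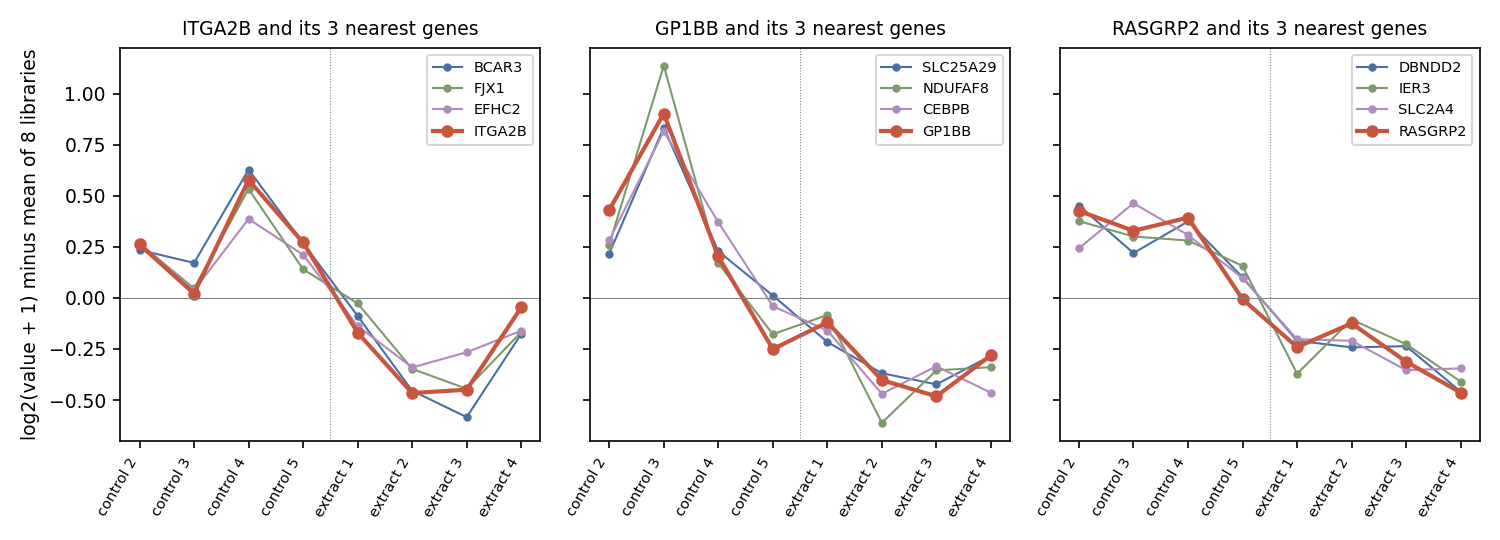
Centred log2(value + 1) (vertical) of ITGA2B, GP1BB and RASGRP2 (red) and of the 3 tested genes nearest to each, over the 4 control and 4 extract libraries. Lines only guide the eye. Control 4 is highest for ITGA2B and its neighbours and control 3 for GP1BB and its neighbours.

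The spread of GP1BB in the control group was wide for a gene of its level, here the mean expression value. Whether the values are per length is not given. The coefficient of variation of GP1BB was 33.6% in control and 11.3% in extract libraries. Among the 100 tested genes nearest to it in level, 90.0% had a lower coefficient in control, with a median of 6.33%. That of ITGA2B was 20.7% and 21.7% and that of RASGRP2 14.7% and 11.9%, near the medians of genes at their levels (21.5% and 14.6% in control). Control 3 exceeded control 5 by 1.15 (log2) for GP1BB, more than for 97.0% of 725 tested genes with a transcript sequence. The GP1BB transcript has 71.1% G and C, more than 98.6% of these genes. In the 242 genes richest in G and C the median difference of control 3 from control 5 was 0.069, against −0.032 in the 242 poorest, and over all 725 genes r was 0.079. The part of base composition in the value of GP1BB was not tested.

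The authors' deposited table ordered the members differently from the spread of its library values. In that table GP1BB had the smallest p-value of the members, 3.61e-42, which ranked 69 of 1950. ITGA2B followed with 5.51e-09 and RASGRP2 with 2.71e-06, ranks 327 and 438 in the authors' deposited table. In limma the order was the reverse at its ends, with p-values of 0.00148 for RASGRP2, 0.00545 for ITGA2B and 0.0188 for GP1BB. An exact permutation test over the 8 libraries gave p = 0.0286 for ITGA2B and RASGRP2, the smallest it can give, and p = 0.0571 for GP1BB and PLEK (two-sided). The fold changes in the authors' deposited table, 0.576 for ITGA2B, 0.629 for GP1BB and 0.640 for RASGRP2, were near the ratios of means of 0.581, 0.613 and 0.625. The tool behind the deposited p-values is not given in the sources used here.

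Other genes of platelet adhesion and activation were mostly not in the table. Of 145 further genes in 6 lists, 11 were listed, beside 1950 of the 60664 genes recovered from the deposited p-values. The authors' deposited table had 9 of the 11 lower and 2 higher, beside 1100 lower and 850 higher of all 1950. Of the 11, 6 were tested, and 5 fell and 1 rose in limma, beside 56.0% called lower and 26.8% higher of all tested genes. The median log2 change of the 6 was −0.62, beside −0.50 for all tested genes. Among the 5 that fell was SPI1, which is also in the list of monocyte and granulocyte markers. The calls of F2R, F2RL3, GSN, SPI1 and ZFPM1 held under median centring and quantile normalization, and that of PECAM1 did not (limma adjusted p = 0.451 and 0.278). With adjustment for 60664 genes, GSN, SPI1 and PECAM1 lost their calls (limma adjusted p = 0.108, 0.0871 and 1). Among 25 adhesion receptors, PECAM1, a junction and platelet surface receptor, was listed beside ITGA2B and GP1BB. PECAM1 was 2.49 ± 0.552 in control and 1.63 ± 0.447 in extract libraries with overlapping groups, and fell by 0.41 (limma adjusted p = 0.0437, or 0.0671 without the filter). ITGB3, the partner of ITGA2B, and GP1BA, GP5 and GP9, the partners of GP1BB, were absent from the table, so they were not analysed here.

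Among 41 genes of inside-out activation only RASGRP2 and PLEK were listed. RAP1A, RAP1B, TLN1 and FERMT3, the GTPases and the integrin-binding proteins downstream of RASGRP2, were therefore not analysed here. Of 13 receptors for platelet agonists, the 2 listed ones were thrombin receptors and both fell, where 56.0% of tested genes were called lower. F2R went from 8.66 ± 0.883 to 5.02 ± 0.421 and F2RL3 from 14.9 ± 0.719 to 8.79 ± 0.414 (SD, n = 4 each), with no overlap of groups, as in 45.9% of tested genes. Their log2 changes of −0.68 and −0.70 had limma adjusted p = 0.000337 and 3.16e-05.

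Of 26 granule and secretion genes 4 were listed, and 0 reached the filter. In the limma fit without the filter RAB27B (0.825 ± 0.244 to 0.388 ± 0.0737), a GTPase of granule release, and STX11 (0.348 ± 0.0222 to 0.182 ± 0.0613), a membrane fusion protein, were called lower, with adjusted p = 0.0225 and 0.0434. Called lower in that fit were 29.1% of all listed genes. THBS1, a secreted adhesion protein of granules, had higher values with the extract, 0.57 ± 0.208 and 1.12 ± 0.451 with overlapping groups, and did not pass there (limma adjusted p = 0.0641). In the authors' deposited table THBS1 had a log2 fold change of 0.94 with an adjusted p of 8.1e-08. In the cytoskeleton list of 20, GSN, the actin-severing protein gelsolin, fell from 5.45 ± 0.661 to 3.23 ± 0.348 (limma adjusted p = 0.00133), and WAS did not reach the filter. In the list of 24 transcription factors, ZFPM1, the partner of GATA1, rose from 15.3 ± 0.649 to 25.9 ± 1.56 (limma adjusted p = 2.13e-05). SPI1, also a monocyte and granulocyte marker, fell from 10.0 ± 0.221 to 6.14 ± 0.995 (limma adjusted p = 0.00108).

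**Figure D5:**
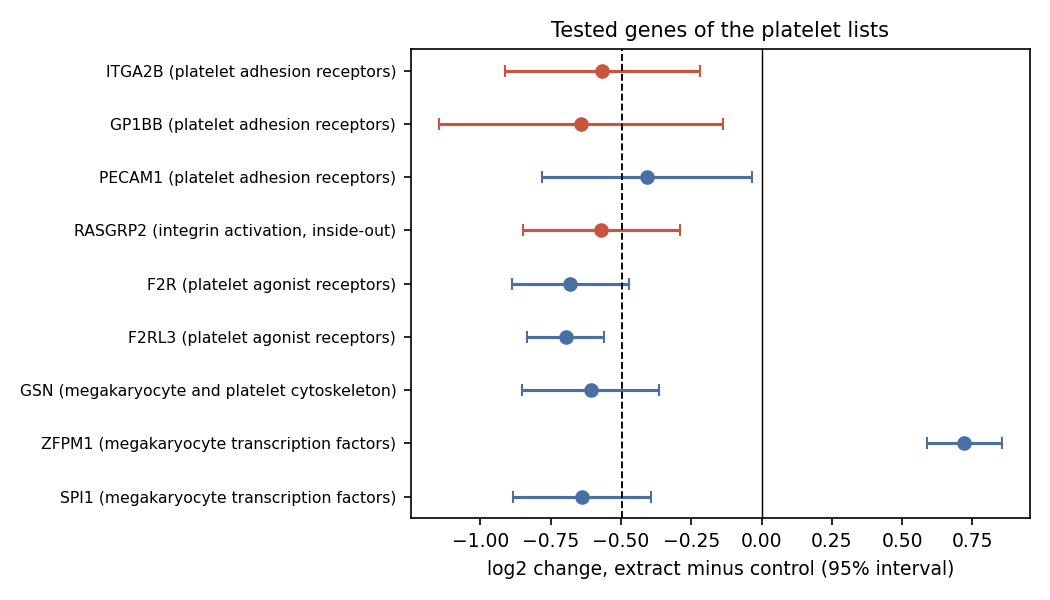
Log2 change with its 95% interval (horizontal) for the 9 tested genes of the platelet lists, members in red and other genes in blue, with the list in brackets. The dashed line is the median of all tested genes (−0.50), and ZFPM1 (0.72) is the gene above 0.

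Markers of other cells moved in the same table. Among 16 genes of K562 and red cell precursors 3 were listed. All 3 were higher in the authors' deposited table, as were 850 of all 1950 listed genes. Only HBZ, the embryonic zeta globin, reached the filter, and the others had low values. HBZ was called higher in limma, as were 26.8% of tested genes. Megakaryocyte and platelet markers numbered 10, of which ITGA2B was the listed one. Of 12 monocyte and granulocyte markers CD68 and SPI1 were listed, with summed values of 31.9 to 33.3 in control and 18.9 to 22.7 in extract libraries. Of 10 markers of fibroblasts, endothelium and epithelium COL1A1 and PLVAP were listed, with sums of 0.57 to 0.95 and 0.56 to 1.63. These sums join opposite directions, and neither gene reached the filter. COL1A1 went from 0.595 ± 0.0926 to 0.31 ± 0.0512, and PLVAP from 0.18 ± 0.0834 to 0.63 ± 0.472 with overlapping groups. The labels name 1 cell line, so these marker values are of K562 cells and do not count other cell types. Fewer cells expressing a gene and less of its RNA per cell cannot be told apart in these bulk samples. The part of these markers in the members' values was not tested.

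Within 500 kb of the 4 members lay 12 other listed genes, 6 of them higher in the authors' deposited table. Of the 12, 5 were tested and 3 called, beside 56.0% called lower and 26.8% higher of all tested genes. ITGA2B had 1 such neighbour, SLC4A1, the anion exchanger of red cells, 104 kb away. SLC4A1 moved the other way, from 0.628 ± 0.180 to 1.04 ± 0.156, and was called higher in the limma fit without the filter (adjusted p = 0.0401). In that fit 314 of all 1950 listed genes were called higher. RASGRP2 had 6 neighbours, among them PPP2R5B, a regulatory subunit gene of protein phosphatase 2A, 172 kb away. PPP2R5B fell from 5.95 ± 1.16 to 3.35 ± 0.505 (log2 −0.67, limma adjusted p = 0.00331). The tested neighbours CATSPERZ and KCNK4-TEX40, whose annotations overlap, did not pass (adjusted p = 0.0675 and 0.0625 in limma). GP1BB had 3 neighbours in the table, each higher on average in extract libraries, where 850 of all 1950 listed genes were higher in the authors' deposited table. The tested one, ENSG00000232926, rose from 0.940 ± 0.346 to 1.92 ± 0.643 (limma adjusted p = 0.0241). PLEK had 2 neighbours, of which the tested one, ENSG00000273064, fell from 2.35 ± 0.632 to 1.50 ± 0.213 (limma adjusted p = 0.0357).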

How the data were processed

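RNA of 8 K562 libraries was sequenced after TRIzol extraction and a TruSeq kit, per the labels' protocols. HISAT2, StringTie and GRCh38 are named in the submitters' processing notes, without versions or roles. The authors deposited 1 expression value per gene and library, and the sources used here do not give its unit. The deposited comparison columns are a fold change (ratio to control), the log2 of it, the p-value and its adjusted form. All 1950 listed genes had p of 0.0499 or less and a change of 1.50-fold or more. In genes with 1 transcript, 8.53% of 1911 low values were whole multiples of the smallest one within rounding (tolerance at most 0.15), where chance gives 8.59%, so reads were not recovered and depth is unknown. Summed listed values were 13114 to 14134 per library.

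limma 3.58.1 (R 4.3.3, trended, robust) was run on log2(value + 1) for the 750 genes that reached 1 in 4 or more libraries, with Benjamini-Hochberg adjustment over all tested genes and calls at 0.05. PLEK, under the filter, was tested in the same fit with no filter. On simulated data with 200 of 750 genes changed between extract and control, the fit recovered 22.0%, 55.0% and 87.0% of genes changed 1.25, 1.5 and 2-fold. Genes named are the 4 members, the 3 nearest in pattern to each tested member, genes of the lists that were listed and genes within 500 kb. The members and lists were chosen with earlier results of these data known. Alternatives were other pseudocounts, filters, scalings and moderation, a larger adjustment family, a replicate block and leaving out each library. The ratios between members were chosen after the data were seen. Coordinates are from GENCODE 29, promoters from RefSeq. The results of 1 marker list and 1 listed gene are not reported here.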

Additional observations from a re-analysis of the deposited data

Results flagged for a closer look

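PLEK was listed at 0.02 in extract 3 and at 0 in the other 3 extract libraries, and the check for far values marked extract 3. With the other 3 values tied at 0, any value above 0 would have been marked. Of 8 groups of 4 values checked (4 genes, 2 conditions), 1 was marked in this way. The rate of about 5% of groups marked by chance is for values without ties and does not hold for this group. The value of 0.02 is 2 steps of the table's last decimal.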

How the results depend on the processing

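ITGA2B, GP1BB and RASGRP2 kept their direction and their calls in limma with pseudocounts of 0.1 and 0.5, without a filter, with a value of at least 1 in all 8 libraries and without trend or robust moderation. Under median centring their changes were −0.30, −0.38 and −0.30, with no call, and under quantile normalization ITGA2B had −0.31, with no call, and GP1BB 0.019, a reversed sign. PLEK turned to 0.17 under centring by construction, since a lower median is subtracted from values near 0, and had no value under quantile normalization or the stricter filter. Adjusted over the 60664 genes recovered from the deposited p-values, ITGA2B (−0.57), GP1BB (−0.64) and RASGRP2 (−0.57) lost their calls (limma adjusted p = 0.786, 1 and 0.285). The exact permutation test of GP1BB (−0.64) gave p = 0.0571.

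With single libraries left out, changes ran from −0.65 to −0.47 for ITGA2B, −0.83 to −0.45 for GP1BB, −0.67 to −0.51 for RASGRP2 and −0.12 to −0.06 for PLEK. The limma adjusted p stayed under 0.05 for ITGA2B (0.00746 to 0.0266) and RASGRP2 (0.00133 to 0.0114) and ran from 0.00421 to 0.0614 for GP1BB. Calls were 163 to 190 higher and 369 to 394 lower, against 201 and 420. Higher calls were 314 without a filter, 131 with the stricter filter and 45 over the larger family, and lower calls were 241 with centring, 251 with quantile normalization and 122 over the larger family. The cause of these losses was not tested, apart from fewer or more genes tested.

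The shared library numbers 2, 3 and 4 are not stated to pair the samples, and deviations of same-numbered libraries correlated at 0.075, 0.075 and 0.15, with control 2 nearest to extract 1. With the number as a replicate block, ITGA2B had −0.61, GP1BB −0.90, RASGRP2 −0.68 and PLEK −0.12, with 161 higher and 354 lower calls, against 164 and 363 in these 6 libraries without the block. That last fit was added after the data were seen.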
